A study of Homo sapiens with 6 samples.

Results

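The HOX genes are homeobox transcription factor genes that lie in 4 clusters on human chromosomes 7 (HOXA), 17 (HOXB), 12 (HOXC) and 2 (HOXD), together with non-coding transcripts that mostly run on the opposite strand. Every row of the deposited count table whose symbol begins with HOXA, HOXB, HOXC or HOXD was taken, together with HOTAIR and HOTAIRM1, whatever its transcript type. HOTTIP, a non-coding transcript at the HOXA13 end of the HOXA cluster, was also asked for but had no row and was not analysed here. This gave 36 of 30987 rows: 16 of HOXA, 3 of HOXB, 12 of HOXC and 5 of HOXD, of which 27 were single coding genes, 1 was the readthrough row HOXA10-HOXA9 and 8 were non-coding.

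The question was how the 4 clusters were expressed in HepG2 cells, and which of their transcripts differed after knockdown of PAIP1, a protein that binds the poly(A) binding protein and promotes translation initiation. HepG2 is an established human liver cancer line. It received 1 siRNA duplex against PAIP1 (siPAIP1, 3 libraries) or a non-targeting control siRNA (Ctrl, 3 libraries), and polyadenylated RNA of cells harvested at 48 h was read by paired-end sequencing. The study describes the 3 libraries of each group as biological replicates of a single cell line, and a single duplex was sequenced. A difference between the groups therefore cannot be told apart from an effect of this duplex other than on PAIP1.

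HOX proteins give cells along the head-to-tail axis their positional identity. Within a cluster, the genes at the end with the low paralog numbers act toward the head and those with the high numbers toward the tail, and the genes are held silent by Polycomb proteins and kept active by Trithorax proteins. Many HOX proteins bind DNA together with PBX and MEIS proteins of the TALE family. In vertebrate embryos, retinoic acid switches on the low-numbered genes, and in adult tissues and tumors a partial HOX pattern often persists.

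The active strand of the duplex against PAIP1 is shown because the comparison rests on it. Capitals mark bases 2 to 8, the seed, and the last 2 bases are overhangs:
siRNA3 guide strand: uAUCAUCCaaguauggauctt
The 7-base word that pairs with this seed, GGATGAT, was in at least 1 annotated transcript of 27.7% of the 15323 tested genes that could be matched to GENCODE release 44. It was in a transcript of 1 of the 14 tested HOX rows, HOXA2, and of HOXA9, HOXC4 and HOXC6 among the others. HOXC9, HOXC12 and HOXD1, which changed below, did not hold it. A match is a description of the letters only.

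The libraries held 33948514, 34157368 and 29313211 counted fragments in siPAIP1, against 34659866, 33527439 and 31045623 in Ctrl. PAIP1 had 8.29, 6.54 and 5.47 FPKM (fragments scaled by exon length and library depth) in siPAIP1, against 26.8, 23.0 and 26.0 FPKM in Ctrl, and its log2 fold change was −1.93 (SE 0.13, adjusted p = 0.000918, edgeR). All 9 hepatocyte markers were above a mean of 1 CPM (counts scaled by library size after TMM adjustment, but not by exon length). Their summed level was 6629 to 8575 CPM in siPAIP1 and 10317 to 10929 CPM in Ctrl. At an adjusted p under 0.05 (edgeR), 5 of the 9 were lower, where 6.2% of all tested genes were. Fewer cells of a kind and less RNA per cell cannot be told apart in such libraries. The summed fibroblast markers stayed at or below 1.33 CPM, those of squamous epithelium at or below 0.295 CPM, and those of blood and endothelium at or below 4.97 and 2.62 CPM in every library. The summed neural markers were 396 to 416 CPM in siPAIP1 and 205 to 237 CPM in Ctrl, almost all of it TUBB3, a tubulin gene. Of the 4 neural rows, 1 was higher at an adjusted p under 0.05 (edgeR), where 5.68% of all tested genes were. TUBB3 had more than 1 of these rows, and SNAP25 had none. SiPAIP1 replicate 3 stood apart: 0.152% of its counts fell in rows too low to be tested, against 0.0664% to 0.0875% in the other 5 libraries. Values without it are given beside the called HOX rows and some of the other genes. Without it, edgeR called 1857 genes higher and 1952 lower of 15732 tested at an adjusted p under 0.05. With all 6 libraries the calls were 882 and 963 of 15528, so passing only without replicate 3 was not particular to HOX rows.

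HepG2 expressed a few HOX rows well above the rest: HOXA3, HOXA4, HOXA5, HOXA-AS2 and HOTAIRM1 of HOXA, and HOXD1 of HOXD. Levels between genes were compared only as FPKM. HOXA4 had the highest mean over the 6 libraries, at 5.62 FPKM, and HOXD1 followed at 5.04 FPKM. HOXA3 averaged 3.88 FPKM, HOXA5 3.24 FPKM, the antisense transcript HOXA-AS2 2.02 FPKM and HOTAIRM1 2.01 FPKM. HOXA4 and HOXD1 overlapped in Ctrl libraries, with 6.62, 5.55 and 5.65 FPKM for HOXA4 and 6.25, 6.28 and 6.46 FPKM for HOXD1. In siPAIP1 libraries HOXA4 had 5.69, 5.57 and 4.61 FPKM and HOXD1 4.58, 3.87 and 2.81 FPKM, so that HOXD1 lay below HOXA4 in each of them.

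All other rows were below these, those of HOXA at no more than 0.232 FPKM. In HOXC the highest rows were HOXC9 with a mean of 0.735 FPKM, HOXC13 with 0.620 FPKM and HOXC12 with 0.267 FPKM, and its leading non-coding rows were HOXC-AS1 with 0.193 FPKM and HOXC13-AS with 0.0833 FPKM. In HOXD, HOXD3 had 0.742 FPKM, HOXD4 0.0750 FPKM, and HOXD11 and HOXD13 were near 0. In HOXB only HOXB7 was above a few counts, at 0.148 FPKM. HOXB13 and HOXB3 had 1 count each over all 6 libraries, and HOXB3 had no FPKM row. GENCODE release 44 lists 39 coding HOX genes. All 11 of HOXA had a row, 3 of 10 of HOXB, 8 of 9 of HOXC and 5 of 9 of HOXD, and the other 12 were not analysed here.

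**Figure D1:**
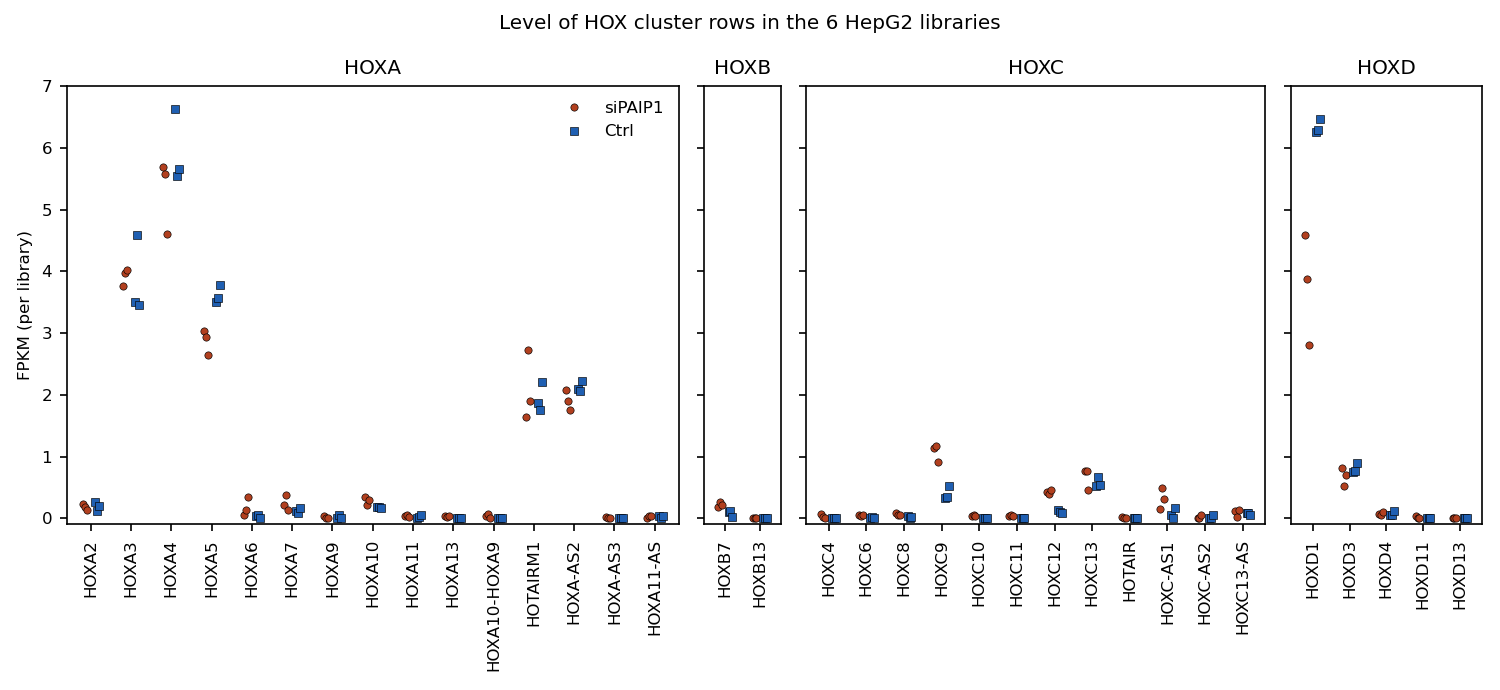
FPKM of the HOX cluster rows reported singly, in each library (y axis), by cluster, coding genes first in paralog order and then non-coding rows; circles are the 3 siPAIP1 libraries and squares the 3 Ctrl libraries. HOXA3, HOXA4, HOXA5, HOXA-AS2, HOTAIRM1 and HOXD1 stand above 1.6 FPKM in every library, and HOXC9 is between 0.91 and 1.17 FPKM in siPAIP1 against 0.33 to 0.52 FPKM in Ctrl.

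A row entered the test when it passed edgeR's default filter on low counts. The filter asks for about 10 counts at the median library size in at least 3 libraries, so a row could pass through its siPAIP1 libraries alone. HOXC12 and HOXA7 would not have passed on their Ctrl libraries alone. Of the 36 rows, 14 passed: 9 of HOXA, 3 of HOXC, 2 of HOXD and none of the 3 of HOXB. A change was called at an adjusted p under 0.05 over all 15528 tested genes. HOXC12 and HOXC9 rose and HOXD1 fell, so 2 of 14 rows were called higher and 1 lower, where 5.68% of all tested genes were called higher and 6.2% lower. Both HOXC genes also passed the study's threshold of 2-fold, against 1.11% of all tested genes for rises, and 0 of 14 passed it downward, against 1.1%. No tested HOX row was lower by 2-fold at an unadjusted p under 0.05 either, in edgeR, DESeq2 or limma. The median log2 fold change of the 14 rows was −0.06, beside 0.03 over all tested genes. By cluster it was −0.12 for the 9 HOXA rows, 1.41 for the 3 HOXC rows and −0.53 for the 2 HOXD rows.

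The HOXC rise was carried by HOXC12 and HOXC9. HOXC12, a high-numbered gene (chromosome 12, 53954903 to 53958956, plus strand, GRCh38), had 52, 48 and 54 counts in siPAIP1 libraries, against 17, 12 and 9 counts in Ctrl libraries. Every siPAIP1 library was well above every Ctrl library. Its mean was 1.56 ± 0.213 CPM in siPAIP1 and 0.389 ± 0.109 CPM in Ctrl (SD, n = 3 each), a log2 fold change of 1.99 (SE 0.27, adjusted p = 0.00578, edgeR). Without siPAIP1 replicate 3 the log2 fold change was 1.87 (SE 0.31, adjusted p = 0.000374, edgeR).

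HOXC9 (chromosome 12, 53994895 to 54003337, plus strand), which in the mouse sets the identity of thoracic motor neurons, had 65, 67 and 50 counts in siPAIP1 libraries, against 19, 20 and 27 counts in Ctrl libraries. The groups did not overlap. Its mean was 1.82 ± 0.143 CPM in siPAIP1 and 0.686 ± 0.174 CPM in Ctrl (SD, n = 3 each), a log2 fold change of 1.41 (SE 0.23, adjusted p = 0.0110, edgeR). Without siPAIP1 replicate 3 it was 1.47 (SE 0.26, adjusted p = 0.000603, edgeR). With 1 library fewer, the adjusted p was 0.0501 without siPAIP1 replicate 2, 0.0634 without Ctrl replicate 1 and 0.0537 without Ctrl replicate 2. Of the exon bases of HOXC9, 9.78% lie over exons of HOXC-AS2 on the other strand and 4.38% over exons of HOXC6.

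HOXC13, the outermost gene of the cluster and needed for hair and nails, did not move with them. It had 67, 69 and 39 counts in siPAIP1 libraries, against 47, 61 and 44 counts in Ctrl libraries, with a log2 fold change of 0.16 (SE 0.23, adjusted p = 0.679, edgeR). The groups overlapped, and siPAIP1 replicate 3 was the lowest of all 6 libraries. Without it the log2 fold change was 0.32 (SE 0.21, adjusted p = 0.30, edgeR). The start of HOXC13 lies 16072 bases from that of HOXC12 on the same strand.

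The other 9 HOXC rows were below the filter, and all but HOTAIR, HOXC-AS1 and HOXC13-AS are named here after their values were seen. HOXC4 had 6, 2 and 1 counts in siPAIP1 and 0 in each Ctrl library, at least 2.93-fold higher against a floor of 3 counts over the Ctrl group. HOXC10 had 2, 4 and 3 counts in siPAIP1 against 1, 0 and 0 in Ctrl, a ratio of 8.78 (95% exact interval 1.22 to 385). HOXC11 had 3, 7 and 3 counts against 0, 1 and 1, a ratio of 6.34 (1.44 to 57.9). These intervals cover counting error only.

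HOXC8 had 6, 4 and 4 counts in siPAIP1 against 3, 0 and 1 in Ctrl, and the groups did not overlap. HOXC6 had 6, 3 and 6 against 1, 3 and 1, and the groups met at 3 counts. The antisense row HOXC-AS1 had 3, 10 and 6 counts in siPAIP1 against 1, 0 and 3 in Ctrl. HOXC13-AS, whose exons overlap those of HOXC13 by 172 bases, had 6, 1 and 7 counts against 4, 4 and 3. HOTAIR, a non-coding transcript between HOXC11 and HOXC12 that is known for binding Polycomb proteins, had 2, 0 and 0 counts in siPAIP1 and none in Ctrl, too few for a comparison at this depth. HOXC-AS2 had 1 count in each group.

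Summed over the 9 rows below the filter, HOXC had 34, 31 and 31 counts in siPAIP1, against 10, 8 and 10 in Ctrl. In CPM these sums were 0.991, 0.887 and 1.03 in siPAIP1 against 0.299, 0.241 and 0.328 in Ctrl, with replicate 3 the highest by a small margin. The 7 coding genes between HOXC4 and HOXC12 summed to 4.08, 3.86 and 4.01 CPM in siPAIP1 against 1.23, 1.09 and 1.28 CPM in Ctrl, while all 12 HOXC rows summed to 6.35, 6.15 and 5.77 CPM against 2.78, 3.05 and 2.95 CPM. Of the 12 rows, 11 had more counts in siPAIP1 and 1 had the same number in both groups. By mean CPM, all 9 HOXC rows below the filter were higher in siPAIP1, HOXC-AS2 through the scaling alone. That measure was higher in siPAIP1 for 58.6% of all rows below the filter with a total of 7 to 44 counts. It was higher for 56.2% of those with a total of 1 to 6 counts. The HOXC rows are not all separate, since HOXC4 and HOXC6 share 484 exon bases on the same strand. HOXC12 and HOXC9 made up most of the difference in the summed CPM of the 12 rows.

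**Figure D2:**
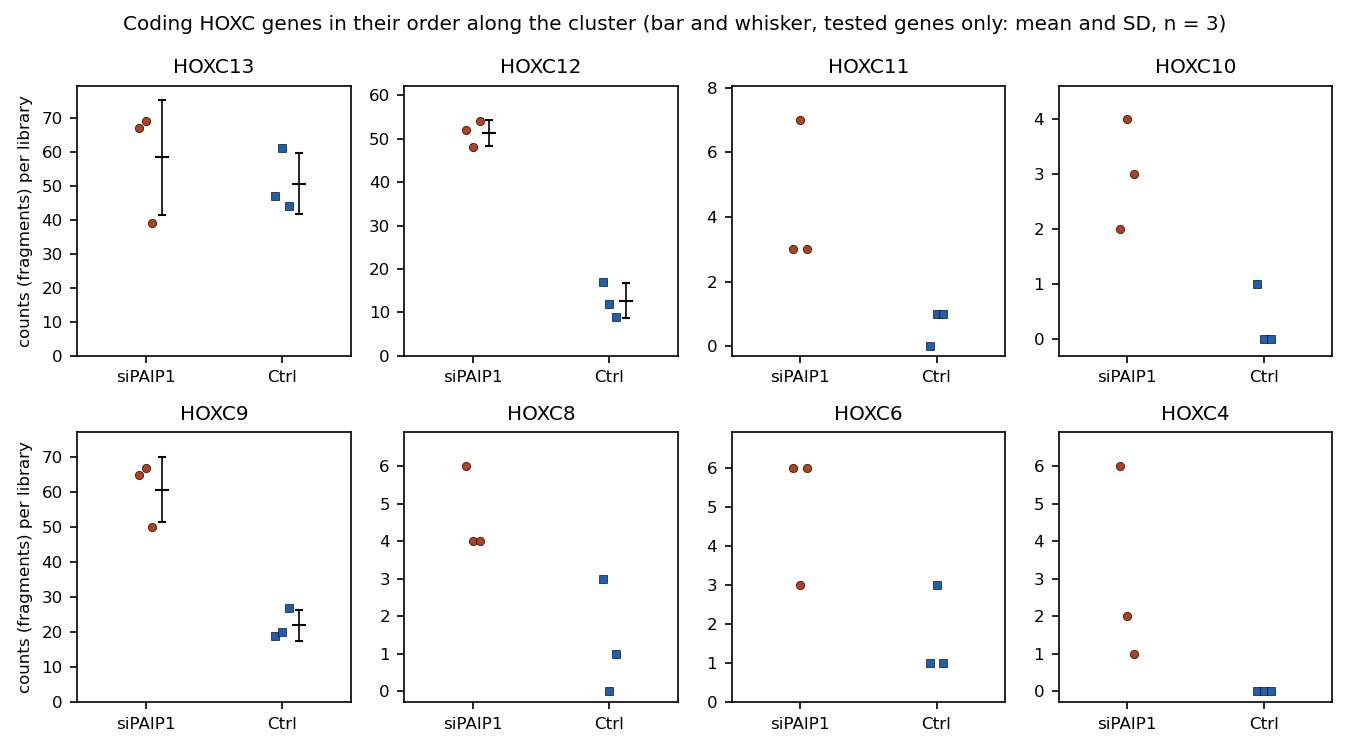
Counted fragments per library (y axis, own scale in each panel) of the 8 coding HOXC genes in their order along chromosome 12, with siPAIP1 libraries left and Ctrl libraries right; bars and whiskers, drawn for the 3 tested genes only, are the mean and SD of 3 libraries. From HOXC12 to HOXC4 the siPAIP1 points lie above the Ctrl points, apart from 1 pair of equal counts in HOXC6, and in HOXC13 the groups overlap.

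The fall in HOXD was carried by HOXD1, the lowest-numbered gene of that cluster, which in the mouse is needed for the wiring of pain-sensing neurons. HOXD1 had 330, 282 and 195 counts in siPAIP1 libraries, against 461, 463 and 427 counts in Ctrl libraries. Every siPAIP1 library was below every Ctrl library, and the siPAIP1 libraries were spread far wider than the Ctrl libraries. Its mean was 8.05 ± 1.58 CPM in siPAIP1 and 13.9 ± 0.109 CPM in Ctrl (SD, n = 3 each), a log2 fold change of −0.79 (SE 0.14, adjusted p = 0.0143, edgeR). Without siPAIP1 replicate 3, the lowest library, it was −0.66 (SE 0.10, adjusted p = 0.000195, edgeR). The adjusted p was above the threshold, at 0.0563 to 0.0724, when siPAIP1 replicate 2 or any 1 of the Ctrl libraries was left out.

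The promoter of HOXD1 is shown because its window lies wholly inside HAGLR, an antisense gene that starts 290 bases into HOXD1. It covers 250 bases before to 50 bases after the start (RefSeq, GRCh38.p14, chr2:176188418-176188717, plus strand), with the 1 CCAAT box found, here on the other strand, in capitals:
HOXD1: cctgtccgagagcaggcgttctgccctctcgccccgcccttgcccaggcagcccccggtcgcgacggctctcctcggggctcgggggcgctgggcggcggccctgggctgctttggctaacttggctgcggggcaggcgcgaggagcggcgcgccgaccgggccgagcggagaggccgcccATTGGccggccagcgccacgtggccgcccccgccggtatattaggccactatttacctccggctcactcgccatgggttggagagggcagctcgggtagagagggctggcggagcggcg
The window held 74.3% G and C and 36 CpG pairs, beside medians of 58.7% and 14 over all 35116 promoter windows of the table. CCAAT on either strand was in 34.6% of those windows, and in 15 of the 26 windows that 19 of the HOX rows had. TATAAA was in 5 of the 26 windows and in 4049 of all 35116, TGATTNAT, a word that PBX and HOX proteins bind together, in 2 and in 2.82%, and AGGTCA, a nuclear receptor half-site, in none and in 13.8%. HOXA3 supplied 7 of these windows, and HOXC9, HOXC12 and HOXA5 had none in the table.

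HAGLR (chromosome 2, 176164051 to 176188958, minus strand) begins with other letters than the rule and is no HOX row, and it is named after its values were seen because HOXD1 shares 145 exon bases with it. It had 965, 834 and 694 counts in siPAIP1 libraries, against 1081, 1141 and 959 counts in Ctrl libraries. The groups were close but did not overlap in CPM, with a log2 fold change of −0.39 (SE 0.10, adjusted p = 0.0430, edgeR), and without siPAIP1 replicate 3 it was −0.34 (adjusted p = 0.00747, edgeR). The adjusted p was 0.117 to 0.134 without siPAIP1 replicate 2 or any 1 of the Ctrl libraries. Another 52.4% of the exon bases of HOXD1 lie over RP11-387A1.6 on the other strand, which had 0, 2 and 3 counts against 0, 3 and 4. The libraries were prepared to keep strand, but no source used here says whether the counting did, so reads of HOXD1 and HAGLR in the shared bases cannot be told apart.

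HOXD3, toward the middle of the cluster, had 74, 49 and 61 counts in siPAIP1 libraries, against 70, 72 and 74 counts in Ctrl libraries, and the groups overlapped in counts. Its log2 fold change was −0.26 (SE 0.20, adjusted p = 0.425, edgeR), and −0.33 (adjusted p = 0.30) without siPAIP1 replicate 3. HOXD4 had 4, 3 and 5 counts against 3, 3 and 6, and HOXD11 and HOXD13, genes of the limbs and tail end, had at most 2 counts in any library. The 5 HOXD rows summed to 10.1 ± 1.72 CPM in siPAIP1 and 16.3 ± 0.332 CPM in Ctrl (SD, n = 3 each), and HOXD1 accounted for nearly all of that gap.

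**Figure D3:**
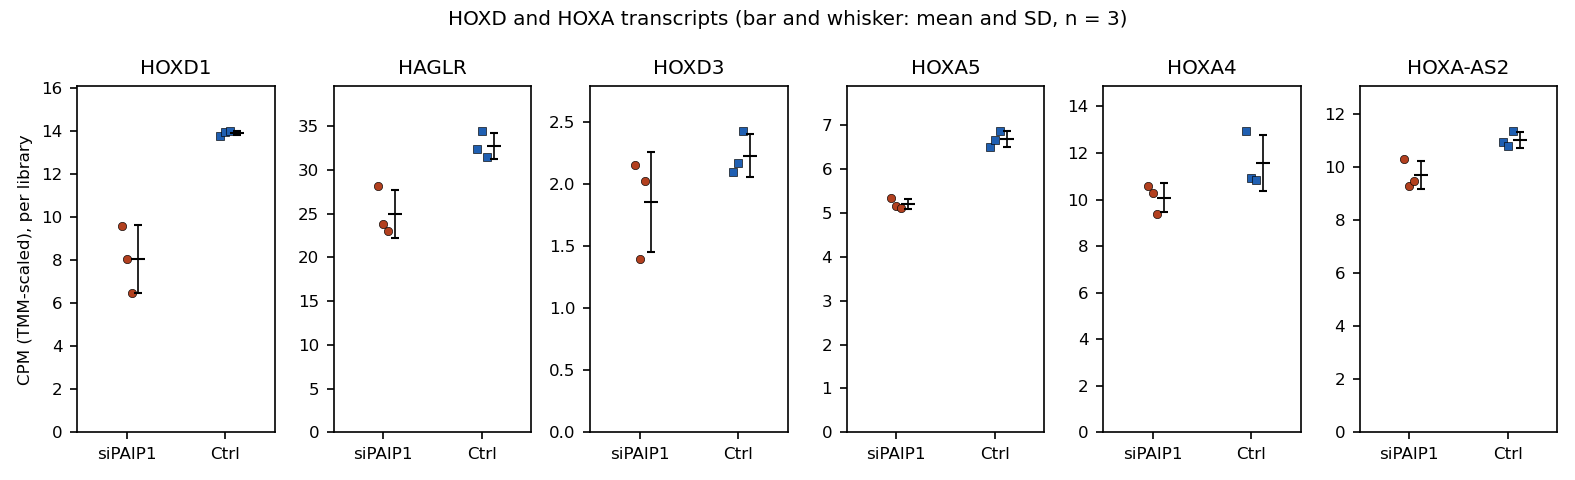
CPM scaled by TMM (y axis from 0, own scale in each panel) of HOXD1, its antisense neighbour HAGLR, HOXD3, HOXA5, HOXA4 and HOXA-AS2 in the siPAIP1 libraries (left) and Ctrl libraries (right); bars and whiskers are the mean and SD of 3 libraries. HOXD1 spans 6.47 to 9.62 CPM in siPAIP1 against a mean of 13.9 ± 0.109 CPM in Ctrl, while HOXA5 differs by less but with tight replicates, 5.11 to 5.33 CPM against 6.50 to 6.86 CPM.

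The HOXA cluster, the most expressed of the 4, had no called member. At an unadjusted p under 0.05, edgeR had 1 of its 9 tested rows up (HOXA10) and 1 down (HOXA5), where 14.8% of all tested genes were up and 13.8% down at that threshold, and DESeq2 and limma also called none. HOXA5, which in the mouse is needed for the lung and airway, came closest, with 183, 180 and 154 counts in siPAIP1 libraries, against 217, 221 and 209 counts in Ctrl libraries. Its groups did not overlap, at 5.20 ± 0.120 CPM in siPAIP1 and 6.67 ± 0.180 CPM in Ctrl (SD, n = 3 each), and the log2 fold change was −0.36 (SE 0.10, adjusted p = 0.0559, edgeR). Without siPAIP1 replicate 3 it passed with about the same change, at −0.35 (adjusted p = 0.0388, edgeR). Over all genes 1952 were called lower in that fit, against 963 with all libraries.

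Its neighbours HOXA4 and HOXA3 differed little. HOXA4 had 363, 359 and 283 counts in siPAIP1 libraries, against 432, 362 and 330 counts in Ctrl libraries, a log2 fold change of −0.20 (SE 0.11, adjusted p = 0.259, edgeR). HOXA3, which in the mouse is needed for the thymus and parathyroid glands, had 504, 537 and 518 counts against 479, 628 and 425, a log2 fold change of 0.00 (SE 0.14, adjusted p = 0.998, edgeR). The siPAIP1 libraries of HOXA3 lay inside the range of the Ctrl libraries. The promoter of HOXA4, the gene with the highest level, is shown for comparison with that of HOXD1 (RefSeq, GRCh38.p14, chr7:27130708-27131007, minus strand, CCAAT box on the other strand in capitals):
HOXA4: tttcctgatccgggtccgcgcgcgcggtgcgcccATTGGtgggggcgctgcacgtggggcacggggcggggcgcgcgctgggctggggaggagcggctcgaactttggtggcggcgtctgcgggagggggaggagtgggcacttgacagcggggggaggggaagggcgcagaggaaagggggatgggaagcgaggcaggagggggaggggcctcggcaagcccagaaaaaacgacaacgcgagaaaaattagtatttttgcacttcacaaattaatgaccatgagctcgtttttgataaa
It held 63.3% G and C and 27 CpG pairs.

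None of the HOXA non-coding rows was called by edgeR. HOXA-AS2 (chromosome 7, 27107777 to 27134302, plus strand), whose exons share 455 bases with HOXA3 and 254 with HOXA4, had 353, 325 and 286 counts in siPAIP1 libraries, against 365, 358 and 346 counts in Ctrl libraries. The log2 fold change was −0.19 (SE 0.09, adjusted p = 0.205, edgeR), and the groups were apart in CPM but overlapped in FPKM. HOTAIRM1, a transcript at the low-numbered end of the cluster that is known from myeloid cells, had 69, 116 and 77 counts against 80, 76 and 85, with siPAIP1 replicate 2 the highest of all and a log2 fold change of 0.08 (SE 0.21, adjusted p = 0.835, edgeR). HOXA-AS3, which covers 62.5% of the exon bases of HOXA7, had 4, 1 and 1 counts against 0, 1 and 0. HOXA11-AS had 0, 2 and 2 counts against 2, 0 and 3.

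Toward the high-numbered end, HOXA10, which in the mouse acts in the uterus, had 40, 25 and 32 counts in siPAIP1 libraries, against 22, 21 and 18 counts in Ctrl libraries, with a log2 fold change of 0.64 (SE 0.26, adjusted p = 0.157, edgeR). Its groups did not overlap, and without siPAIP1 replicate 3 it was 0.57 (adjusted p = 0.210, edgeR). HOXA7 had 16, 28 and 9 counts against 9, 7 and 11, a log2 fold change of 0.91 (SE 0.43, adjusted p = 0.215, edgeR), with groups that overlapped. Without siPAIP1 replicate 3, its lowest siPAIP1 library, it passed at 1.17 (adjusted p = 0.0488, edgeR). HOXA2, a gene of the hindbrain and pharyngeal arches, had 15, 13 and 8 counts in siPAIP1 libraries, against 18, 8 and 12 counts in Ctrl libraries, a log2 fold change of −0.12 (SE 0.38, adjusted p = 0.862, edgeR).

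Of the HOXA rows below the filter, HOXA13, a gene of the digits and urogenital tract, had 5, 4 and 5 counts in siPAIP1, against 1, 0 and 0 in Ctrl, a ratio of 13.7 (95% exact interval 2.08 to 578). HOXA6 had 2, 5 and 12 counts against 1, 2 and 0, a ratio of 6.18 (1.82 to 32.6), and 12 of the 19 siPAIP1 counts came from replicate 3. Its groups met at 2 counts. Of its exon bases, 39.3% lie over HOXA-AS3. HOXA9, HOXA11 and the readthrough row had at most 5 counts in any library. In HOXB, HOXB7 had 9, 13 and 10 counts in siPAIP1, against 5, 6 and 1 in Ctrl, a ratio of 2.60 (1.30 to 5.55), with no overlap.

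Read over all 36 rows, 22 had more counts in siPAIP1 than in Ctrl, 12 had fewer and 2 had the same number. Among the 14 tested rows, every siPAIP1 library was above every Ctrl library in CPM for HOXA10, HOXC9 and HOXC12, where 19% of all tested genes were, and below for HOXA4, HOXA5, HOXA-AS2 and HOXD1, where 17.6% were. Among the 22 rows below the filter, 6 lay wholly above (HOXA13, HOXB7, HOXC4, HOXC8, HOXC10 and HOXC11), against 3.31% of all rows below the filter, and 0 wholly below, against 2.72%. Many of those other rows had hardly any counts. Of the 5758 rows below the filter with a total of 7 to 44 counts, the range that 15 of the HOX rows fell in, 6.08% lay wholly above and 58.6% had the higher mean in siPAIP1.

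Summed by cluster, the 16 HOXA rows summed to 45.8, 46.5 and 46.5 CPM in siPAIP1, against 49.5, 51.6 and 47.8 CPM in Ctrl, and the 3 HOXB rows to 0.262, 0.372 and 0.332 CPM against 0.150, 0.211 and 0.0656 CPM. By position, the 15 coding rows of paralog groups 1 to 8 summed to 43.3 ± 1.13 CPM in siPAIP1 and 51.8 ± 2.30 CPM in Ctrl, and the 12 of groups 9 to 13 to 6.62 ± 0.428 CPM in siPAIP1 and 3.45 ± 0.193 CPM in Ctrl (SD, n = 3 each). Most of the first difference came from HOXD1 and most of the second from HOXC9 and HOXC12. Within HOXA alone, groups 9 to 13 summed to 1.49, 0.972 and 1.29 CPM in siPAIP1 against 0.719, 0.814 and 0.722 CPM in Ctrl. The difference between clusters or positions was not tested, since genes of a cluster are not replicates.

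**Figure D4:**
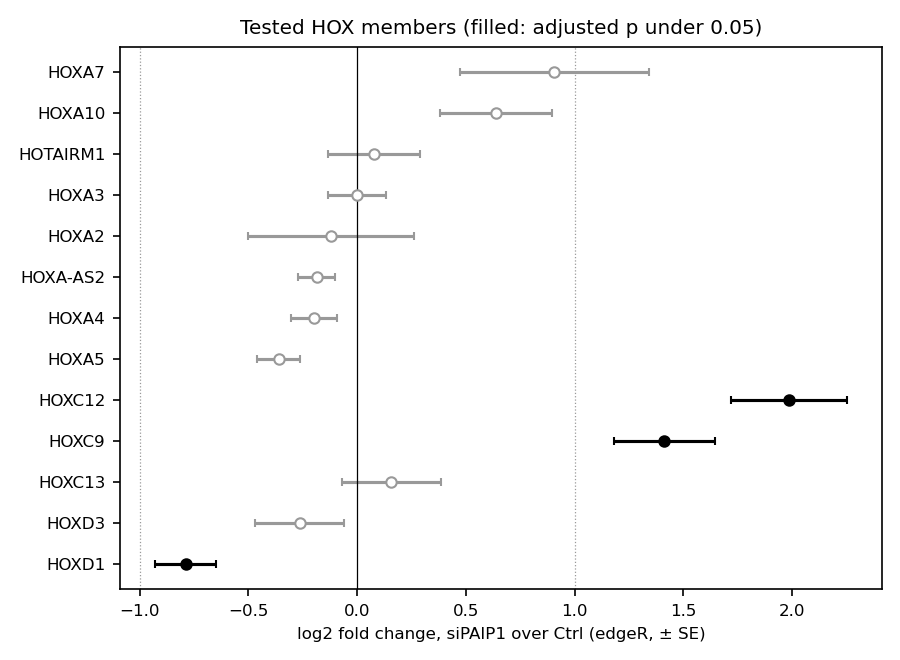
Log2 fold change of siPAIP1 over Ctrl with its SE (x axis, edgeR) for 13 of the 14 tested HOX rows, by cluster; filled points passed an adjusted p under 0.05 over all tested genes and dotted lines mark 2-fold. HOXC12 (1.99) and HOXC9 (1.41) lie beyond 2-fold, HOXD1 (−0.79) does not, and the HOXA rows drawn lie between −0.36 and 0.91.

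Genes that act with or on the HOX clusters were read from lists. Of the TALE cofactors, 2 of 6 tested genes rose and none fell, where 5.68% of all tested genes rose and 6.2% fell, and the list median was 0.05. MEIS3 had 21, 35 and 23 counts in siPAIP1 libraries, against 9, 9 and 4 in Ctrl libraries, a log2 fold change of 1.79 (SE 0.36, adjusted p = 0.0209, edgeR). It entered the test only through its siPAIP1 libraries, so the 2 of 6 rests in part on a gene that passed the filter where it was high. With no filter MEIS3 was still called (adjusted p = 0.00681, edgeR). PBX2 was 0.66 (SE 0.17, adjusted p = 0.0487, edgeR), with 67.0, 64.7 and 102 CPM in siPAIP1 against 51.3, 50.2 and 46.0 CPM in Ctrl, so that replicate 3 stood above the rest. Without siPAIP1 replicate 3 the log2 fold change of PBX2 was 0.42 (adjusted p = 0.000394, edgeR). PKNOX1 had a log2 fold change of −0.30 (adjusted p = 0.0928, edgeR), and −0.27 (adjusted p = 0.0491) without siPAIP1 replicate 3. The calls of MEIS3 and PBX2 were lost without siPAIP1 replicate 2 or without any 1 of the Ctrl libraries, with adjusted p of 0.0649 to 0.0883 for MEIS3 and 0.0560 to 0.190 for PBX2, and that of PBX2 also without siPAIP1 replicate 1, at 0.0512.

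Of the 23 Polycomb genes, 4 rose (17.4%, beside 5.68% of all tested genes) and none fell (beside 6.2%), with a list median of 0.10, and DESeq2 called 5 higher. They were CBX6 (log2 fold change 0.94, SE 0.14, adjusted p = 0.00716), CBX2 (0.82, SE 0.17, adjusted p = 0.0224), PHF19 (0.36, SE 0.08, adjusted p = 0.0374) and PHC2 (0.33, SE 0.07, adjusted p = 0.0214), all by edgeR. CBX2 and CBX6 are chromodomain subunits of the PRC1 complex, PHC2 another PRC1 subunit and PHF19 an accessory subunit of PRC2. CBX2 had 18.5, 18.2 and 27.4 CPM in siPAIP1 libraries, against 11.2, 12.8 and 12.2 CPM in Ctrl libraries. CBX6 had 28.4, 29.6 and 38.5 CPM against 17.0, 18.2 and 15.1 CPM. In both, siPAIP1 replicate 3 was the highest library. With 1 library left out the log2 fold change was at least 0.60 for CBX2 and 0.79 for CBX6 (edgeR). The catalytic subunit EZH2, named after its value was seen, had a log2 fold change of −0.06 (SE 0.08, adjusted p = 0.662, edgeR). Leaving out any 1 library but siPAIP1 replicate 3 took PHC2 and PHF19 to adjusted p of 0.0673 to 0.158, leaving out any 1 Ctrl library took CBX2 to 0.0746 to 0.108, and leaving out Ctrl replicate 3 took CBX6 to 0.0507.

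None of the 14 Trithorax and H3K27 demethylase genes was called by edgeR, DESeq2 or limma. Of all tested genes, edgeR called 5.68% higher and 6.2% lower, and whether none of 14 differs from these shares was not tested. KDM6B alone was higher before adjustment (p under 0.05), as were 14.8% of all tested genes by edgeR. The median of the 14 genes was 0.30, and −0.04 without siPAIP1 replicate 3. KDM6B had 23.6, 25.3 and 63.3 CPM in siPAIP1 libraries, against 15.8, 23.8 and 17.2 CPM in Ctrl libraries, and KMT2C had 17.5, 18.4 and 61.5 CPM against 15.3, 20.7 and 15.5 CPM. In both, as in KMT2A, KMT2B, KMT2D and HCFC1, siPAIP1 replicate 3 was far above the other 5 libraries. Without it the log2 fold changes were 0.36 (adjusted p = 0.0447) for KDM6B and 0.06 (adjusted p = 0.749) for KMT2C by edgeR, and without the filter on low counts both were called. ASH2L had −0.14 (SE 0.07, adjusted p = 0.209, edgeR).

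Of the 10 tested retinoic acid genes, 1 rose (10%, beside 5.68% of all tested genes) and 2 fell (20%, beside 6.2%), with a list median of 0.36. CRABP2, a carrier of retinoic acid, had a log2 fold change of 0.81 (SE 0.20, adjusted p = 0.0409, edgeR), ALDH1A1, an enzyme that makes retinoic acid, −0.50 (SE 0.11, adjusted p = 0.0317, edgeR), and DHRS3, which turns retinaldehyde back into retinol, −0.30 (SE 0.07, adjusted p = 0.0396, edgeR). Leaving out a single library took each of these calls away for at least 4 of the 6 libraries, with adjusted p up to 0.153, 0.134 and 0.156. Of the CTCF and cohesin genes, which organise the loops of the clusters, RAD21 alone of 8 was called (12.5%, beside 6.2% of all tested genes lower), at −0.36 (SE 0.08, adjusted p = 0.0351, edgeR), and WAPAL and SMC1A had 0.14 and 0.35 without a call, that of SMC1A being 0.0037 without siPAIP1 replicate 3. The median of the 8 was 0.06. RAD21 was at 0.0960 to 0.139 without siPAIP1 replicate 2 or any 1 of the Ctrl libraries.

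Of the genes beside the clusters, 1 of 16 tested was called (6.25%, close to the 5.68% of all tested genes called higher), CBX5, a heterochromatin protein gene near the low-numbered end of HOXC, at 0.43 (SE 0.09, adjusted p = 0.0270, edgeR), with 47.9, 50.2 and 57.8 CPM in siPAIP1 against 39.3, 40.1 and 36.3 CPM in Ctrl. The median of the 16 was 0.04. The adjusted p of CBX5 was 0.0734 to 0.131 without siPAIP1 replicate 2 or any 1 of the Ctrl libraries. KIAA1715, beside HOXD, had −0.34 (SE 0.09, adjusted p = 0.0542, edgeR), which passed without siPAIP1 replicate 3 at −0.28 (adjusted p = 0.0202), and CALCOCO1, beside HOXC, 0.49 (SE 0.18, adjusted p = 0.131, edgeR). Of the related homeobox genes outside the clusters, MNX1 and GBX2 were tested and neither was called by edgeR, DESeq2 or limma, at 0.37 (SE 0.14, adjusted p = 0.133, edgeR) and −0.35 (SE 0.13, adjusted p = 0.134, edgeR), and edgeR put MNX1 up and GBX2 down at an unadjusted p under 0.05.

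**Figure D5:**
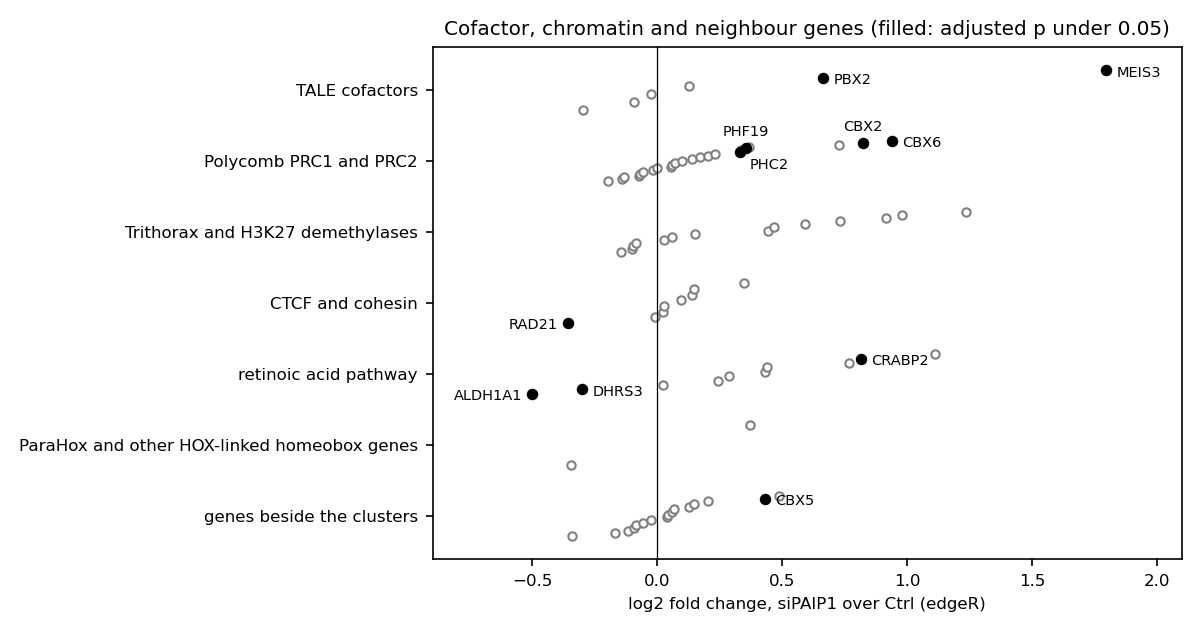
Log2 fold change of siPAIP1 over Ctrl (x axis, edgeR) for the tested genes of 7 lists of cofactors, chromatin proteins, retinoic acid genes and neighbours of the HOX clusters; filled, named points passed an adjusted p under 0.05. MEIS3 is the farthest at 1.79, and the 4 called Polycomb genes lie between 0.33 and 0.94.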

How the data were processed

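The authors trimmed reads, aligned them to GRCh38 with TopHat2 and deposited raw counts of uniquely mapped fragments per gene, and FPKM values that they computed from the same alignments, with 2 decimals. The labels also name bcl2fastq and edgeR. For the counting tool, strand use, annotation release and tool versions, nothing was found (not given in the sources used here).

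Deposited counts were read into R 4.3.3 and fitted in edgeR 4.0.16 (TMM factors, default filterByExpr, glmQLFit and glmQLFTest with a single term for group), and p-values were adjusted by Benjamini and Hochberg's method over 15528 genes. SEs were taken from the change and its F statistic. CPM, also of rows below the filter, were counts over TMM-scaled library sizes. Ratios of summed counts have 95% exact conditional intervals. Alternatives were RLE factors, no filter, CPM of at least 1 in 3 libraries, DESeq2 1.42.0, limma-trend 3.58.1 on log2(FPKM + 0.1) and log2(FPKM + 1), a replicate block, each library left out, and, chosen after seeing the data, the fit without siPAIP1 replicate 3 and Ctrl replicate 2 together, whose reads mapped to several places most often in the study's mapping table. The fit was also run on simulated counts with no deviating library like siPAIP1 replicate 3, so that run does not show how well it handles these data.

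All 36 rows matched GENCODE release 44 by gene ID. Named were PAIP1, called rows, HOTAIR and HOTAIRM1, HOXA6, HOXA13, HOXC9 and HOXC12, the 3 coding and 2 non-coding rows of highest mean FPKM and the 2 of lowest adjusted p per cluster, and up to 3 genes of lowest adjusted p per list. Any other gene was chosen once its values had been seen. The rows, lists and rule were chosen with earlier results of these data known. Some symbols asked for have no row and are not analysed here. 1 tested HOXA row is included in counts, sums and medians but is not reported here singly or drawn. Figures used matplotlib.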

Additional observations from a re-analysis of the deposited data

How the results depend on the processing

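HOXC12 was called under all 14 alternatives (adjusted p at most 0.0423), and PAIP1 was lower in all of them (log2 fold change −2.09 to −1.77). Leaving out a single library, 1 to 3 HOX rows were called higher, 1 to 3 were higher by 2-fold and 0 to 2 were lower, and 0 were lower by 2-fold. On log2(FPKM + 1), where the pseudocount shrinks the change of low rows, 0 rows were higher by 2-fold, though HOXC12 and HOXC9 were still called. Without siPAIP1 replicate 3 and Ctrl replicate 2 together, an alternative chosen after seeing the data, 2 rows were lower, HOXD1 and HOXA5 (adjusted p = 0.0361, edgeR). Deviations of same-numbered libraries correlated at 0.35, −0.37 and −0.17, and those of siPAIP1 replicate 3 and Ctrl replicate 2 at 0.45. With 3 libraries per group, such values cannot show whether the numbered replicates were paired. HAGLR (0.0877) lost its call under the replicate block, as did MEIS3 (0.0538), PBX2 (0.0958), PHC2 (0.0863), PHF19 (0.0751), CBX5 (0.0826), RAD21 (0.0689), ALDH1A1 (0.0713), DHRS3 (0.117) and CRABP2 (0.103), all adjusted p by edgeR. The same 3 HOX rows were called with the block, and over all genes 366 were higher and 459 lower, against 882 and 963 without it. Over all genes the calls ranged, with 1 library left out, between 187 and 1857 higher (without Ctrl replicate 1 and without siPAIP1 replicate 3) and between 269 and 1952 lower (without Ctrl replicate 3 and without siPAIP1 replicate 3). They were 2363 and 2552 without both libraries named above, and limma called 607 and 588 lower on log2(FPKM + 0.1) and log2(FPKM + 1). The cause was not tested. Outside the single-library fits, limma on FPKM also lost HAGLR, RAD21, ALDH1A1 and DHRS3 (adjusted p 0.0911 to 0.146), the fit with no filter lost PHC2, CRABP2 and DHRS3 (0.0693 to 0.0754), DESeq2 lost CRABP2 (0.148), the filter of 1 CPM lost PBX2 (0.0507) and log2(FPKM + 1) lost PHC2 (0.0504). With no filter no further HOX row was called, the lowest adjusted p among the other rows of HOXC being 0.126 (HOXC4, edgeR), and the median of the same 9 HOXA rows was −0.13, and −0.15 in DESeq2.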
